A study of Mus musculus with 2 samples.

Results

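The 9 transcription factor genes described here were followed across the vessels of injured mouse kidneys, taken 14 days after unilateral ischaemia and reperfusion. They were listed by name, without a cut on a measured value, but earlier results of these data were known when the list was made. Among them are the SOXF genes Sox17, Sox7 and Sox18, the GATA factor gene Gata5 and the T-box gene Tbx3. The others are the ETS genes Erg and Fli1 and the Krüppel-like genes Klf2 and Klf4. Together these are 9 of the 32285 genes in the files. Single-cell RNA was measured in 2 libraries, 1 per group. The control group was Cre-, and the haplodeficient group had the genotype Cdh5-CreERT2; Phd3f/+, in which a Cre recombinase that tamoxifen switches on, driven by the promoter of the endothelial cadherin gene Cdh5, acts on a single floxed allele of Phd3 (Egln3), an oxygen-dependent prolyl hydroxylase. Both groups received the injury and 4 tamoxifen injections after it, and both libraries carry the label of batch 1. Age, sex, strain and the number of animals behind a library were not given in the labels, nor whether the controls carry the floxed allele, and the groups differ in the presence of Cre as well.

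SOXF factors bind DNA through an HMG box and act in arterial, venous and lymphatic specification, partly in each other's place. ERG and FLI1 are ETS factors that hold endothelial genes active, and FLI1 is also a factor of blood cells. KLF2 and KLF4 are zinc-finger factors that rise with laminar blood flow and carry anti-inflammatory and anti-thrombotic programmes, and KLF4 is also an early responder to stress in many cells. GATA5 and TBX3 are known from the endothelium of glomeruli, the filtering tufts of the kidney. The kidney's further vessels include arteries and arterioles, the descending vasa recta that carry blood into the medulla, and the peritubular capillaries around the tubules.

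A barcode (the droplet label that stands for a cell) was retained if it held 500 or more unique molecular identifiers (UMIs) from 200 or more genes with a mitochondrial share of up to 50%, and was called endothelial with at least 3 UMIs over Cdh5, Pecam1, Egfl7 and Emcn and no UMI of the leukocyte gene Ptprc. Of 9452 retained control barcodes 610 were endothelial, and of 10026 haplodeficient ones 1061, that is 1671 of 19478 in all. Endothelial barcodes had medians of 9242.5 and 6229 UMIs. Egln3, the targeted gene, was at 12.24 (9.977 to 14.85) CPM in endothelial barcodes of the control library and 12.998 (11.05 to 15.19) in those of the haplodeficient one. CPM is the UMIs of a gene relative to all UMIs of the barcodes summed, on the usual scale, with an exact Poisson 95% interval in parentheses. The intervals overlap, and no lower level was seen in the library labelled haplodeficient. The labels do not say which exons are deleted or whether the counted reads come from them, so this level does not check the genotype labels. No endothelial barcode sequence was shared between the libraries, against 28 of all retained ones. Subtypes followed 1 marker each: Ehd3 for glomerular (124 control and 272 haplodeficient barcodes), Slc14a1 for descending vasa recta (96 and 101), Gkn3 for arterial (15 and 19) and Rgcc for capillary barcodes without any of the other 3 (117 and 311). A further 239 and 327 endothelial barcodes had none of the markers, and 19 and 31 had more than 1 of Ehd3, Slc14a1 and Gkn3.

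Genes that took no part in the choice were read as a check of these names. The descending vasa recta genes were highest in Slc14a1 barcodes in both libraries for 3 of 3 genes, among them Aqp1, the water channel, at 2755 and 2298 CPM (the control value stands first here and below). The arterial genes were highest in Gkn3 barcodes for 5 of 5, with Gja4, a gap junction gene, at 741 and 677 CPM. The glomerular genes were highest in Ehd3 barcodes for 4 of 5 (Plat, Mapt, Dkk2 and Kdr), while Pi16 was higher in Gkn3 barcodes. Of 4 capillary genes 1, Plvap, was highest in Rgcc barcodes, at 457 and 843 CPM, whereas Kdr, Npr3 and Esm1 were not. Kdr stood on both the glomerular and the capillary list, so those scores are not independent. Rgcc was itself found in Ehd3 barcodes at 134 and 423 CPM. The Rgcc group is therefore called by its marker and not by a vessel type, and the other 3 by theirs too.

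Many endothelial barcodes also held RNA of other cells. Over 31 markers of 7 other classes, the summed level was 2638 and 1865 CPM in Ehd3, 2384 and 1768 in Slc14a1, 1632 and 3013 in Gkn3, and 5687 and 2854 in Rgcc barcodes. In 220 of 610 control (36.1%) and 206 of 1061 haplodeficient endothelial barcodes (19.4%) the markers of another class, mostly tubular or mural, reached the UMIs of the 4 endothelial markers. These barcodes were deep, with medians of 17989.5 and 18458 UMIs against 5375.5 and 4816 in the rest, and held 58.0% and 39.7% of the endothelial UMIs. The lymphoid markers summed to at most 7.06 CPM in any subtype. The subtype and library results below are therefore also given without those barcodes, for what is called here the endothelium-dominant barcodes, 390 and 855 in all, a set chosen after the data were seen. Among the 4 subtypes the share that was left out was highest in control Rgcc barcodes, where it was 33.3% of barcodes and 68.2% of UMIs. What part such RNA plays in the results was not tested beyond these side-by-side values. Barcodes of 2 cells were not removed by a doublet caller.

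Sequence in front of the start site was available from RefSeq (GRCm38.p6) for 4 of the 9 genes (Gata5, Erg, Klf2 and Klf4). It is shown for Gata5, the gene of the narrowest distribution, and for Klf2 and Klf4, whose levels moved alike over the subtypes. Each line gives the 250 bases before the start, 5′ to 3′ along the gene's strand. In Klf2 the capitals mark a match to CTA and TAG set 4 bases apart, a binding sequence of MEF2 factors, and in Gata5 and Klf4 they mark GGGCGG or its complement, the GC box.
Gata5 (chr2:180334680-180334929, minus strand): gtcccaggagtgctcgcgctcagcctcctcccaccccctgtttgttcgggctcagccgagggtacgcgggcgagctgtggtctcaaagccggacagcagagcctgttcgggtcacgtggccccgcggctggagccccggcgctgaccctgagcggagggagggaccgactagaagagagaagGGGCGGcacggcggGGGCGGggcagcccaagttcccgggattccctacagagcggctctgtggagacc
Klf2 (chr8:72318812-72319061, plus strand): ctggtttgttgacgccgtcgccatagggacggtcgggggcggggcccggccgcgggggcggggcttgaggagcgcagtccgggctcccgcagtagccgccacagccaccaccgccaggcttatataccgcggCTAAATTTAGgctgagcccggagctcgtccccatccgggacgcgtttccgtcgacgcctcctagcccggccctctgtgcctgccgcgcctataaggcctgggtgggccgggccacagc
Klf4 (chr4:55532476-55532725, minus strand): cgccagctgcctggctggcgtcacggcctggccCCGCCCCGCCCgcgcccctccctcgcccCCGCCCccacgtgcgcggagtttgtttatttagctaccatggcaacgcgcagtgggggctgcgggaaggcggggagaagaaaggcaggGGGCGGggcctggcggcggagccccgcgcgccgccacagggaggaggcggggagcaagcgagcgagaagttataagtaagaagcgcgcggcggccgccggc
The MEF2 letters begin 118 bases before the start of Klf2, and in windows of 300 bases, which reach 50 bases past the start, 3.69% of 32851 RefSeq promoters hold them on either strand. Klf4 and Gata5 held no such match there. GGGCGG was present in 35.7% of all promoters, with 2 matches in Gata5, 2 in Klf2 (not in capitals) and 4, of which 2 overlap, in Klf4. A match is a description of letters and not of a bound site.

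**Figure D1:**
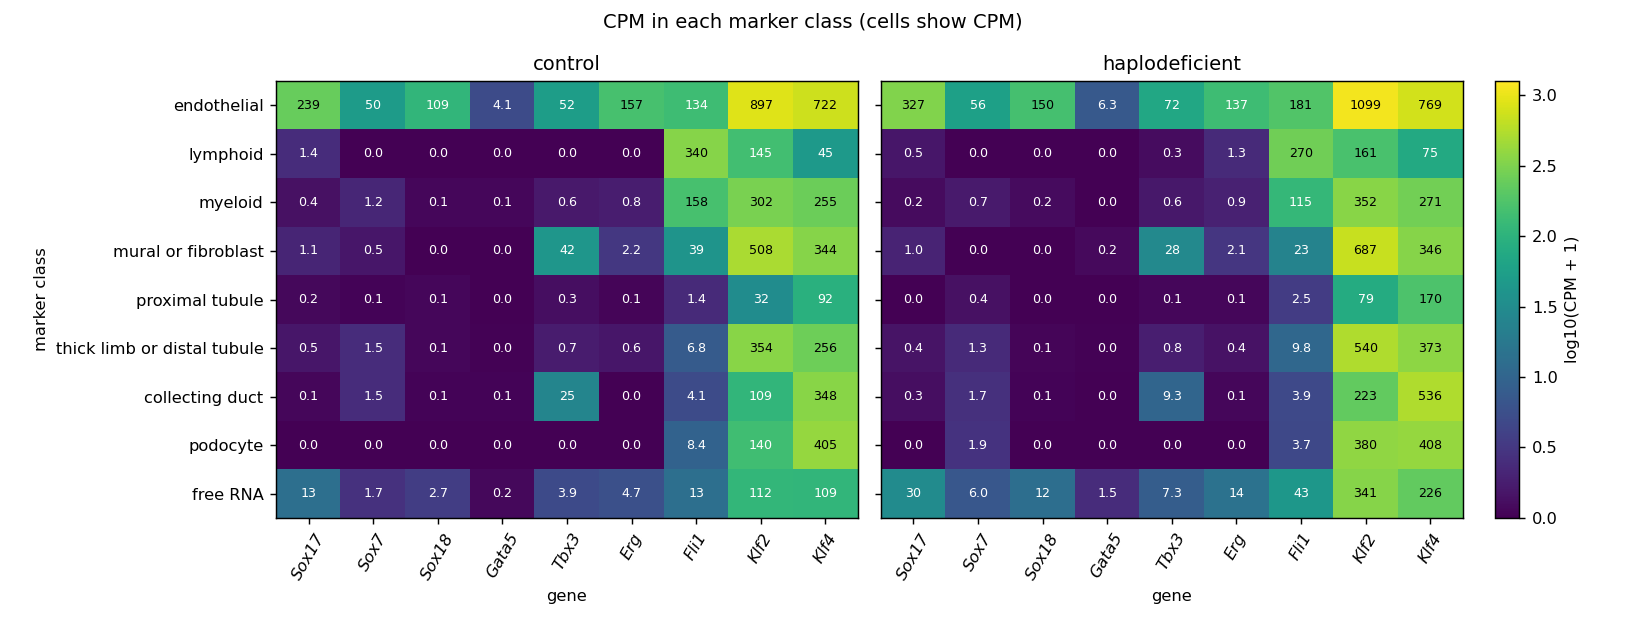
CPM of the 9 genes (columns) in endothelial barcodes, in 7 other marker classes and in free RNA (barcodes of 1 to 100 UMIs), for each library, with the value written in each field and the colour on a scale of log10(CPM + 1). Sox17, Sox7, Sox18, Gata5 and Erg are at most 2.17 CPM in the 7 other classes, while Fli1 is highest in the lymphoid row and Klf2 and Klf4 are present in every row.

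Across the whole kidney suspension the genes fell into a narrow and a wide group. Erg was at 157 CPM in control and 137 in haplodeficient endothelial barcodes, and the next class, mural or fibroblast barcodes, was at 2.17 and 2.05 CPM. Sox17 was at 239 and 327 CPM, with at most 1.45 CPM in any of the 7 other named classes. Sox18 was at 109 and 150.4 CPM, with at most 0.227 in those classes, and Sox7 was at 49.8 and 56.1 CPM, with at most 1.87. Free RNA held more of these genes than the other named classes did, with Sox17 at 12.7 and 30.4 CPM and Erg at 4.71 and 13.8 CPM. Barcodes given to no class, among them those with endothelial markers and a Ptprc UMI, had Sox17 at 4.69 and 31.8 CPM.

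Tbx3 had a further site. It was at 52.3 and 71.7 CPM in endothelial barcodes, 41.7 and 27.7 in mural or fibroblast and 24.7 and 9.28 in collecting duct barcodes. The control ratio of endothelial to mural or fibroblast barcodes was 1.25 (0.982 to 1.62), an interval that includes 1. On the haplodeficient side it was 2.59 (2.16 to 3.13). Fli1 was higher in lymphoid barcodes, at 340.4 and 270.4 CPM, than in endothelial ones, at 134 and 181 CPM. The ratio of endothelial to lymphoid levels was 0.395 (0.343 to 0.457) and 0.669 (0.621 to 0.721). Myeloid barcodes had Fli1 at 158 (149 to 167) and 115 (110 to 120) CPM, above the level of all endothelial barcodes in the control library only. In endothelium-dominant barcodes Fli1 was at 256 (239 to 273) and 256 (244 to 267) CPM, above the myeloid level in both libraries. It was still below the lymphoid level in the control, while the haplodeficient interval overlapped the lymphoid one (254 to 287). Tbx3 was there at 87.9 (78.4 to 98.3) and 97.1 (90.1 to 104) CPM, above mural or fibroblast barcodes in both libraries.

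Klf2 was found in every class. It was at 897 and 1099 CPM in endothelial barcodes and at 508 and 687 in mural or fibroblast barcodes, the next class. Klf4 was at 722 and 769 CPM, and the next class was podocyte barcodes for the control, at 405 CPM, and collecting duct barcodes for the other library, at 536 CPM. Free RNA held Klf2 at 112 and 341 CPM and Klf4 at 109 and 226 CPM.

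**Figure D2:**
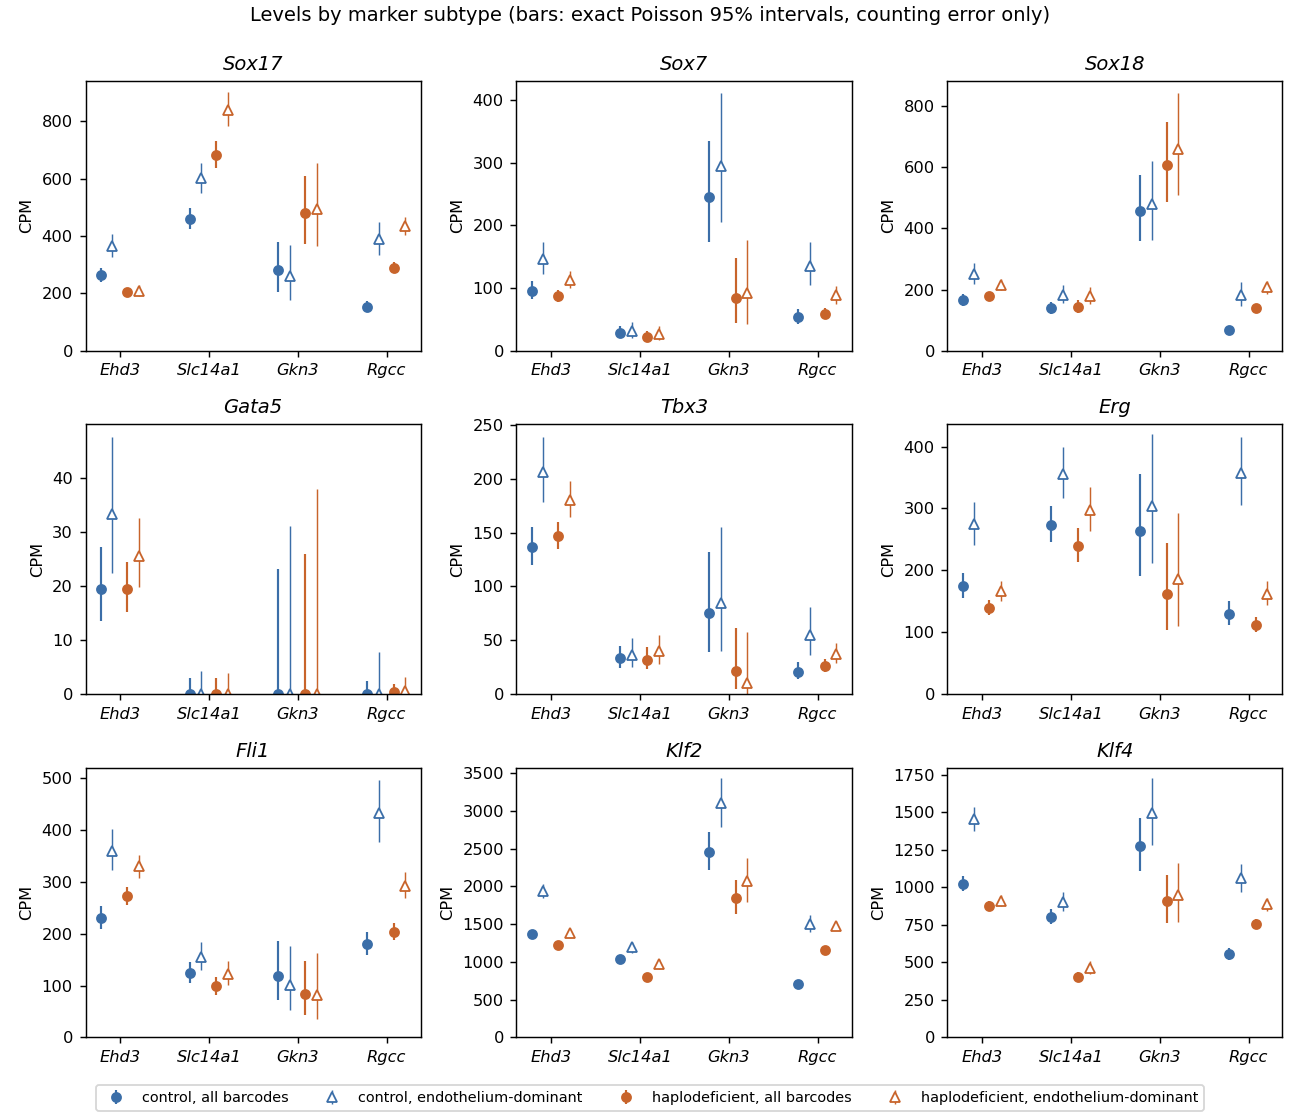
CPM of each gene in the 4 marker subtypes (x axis) and 2 libraries (blue control, orange haplodeficient), for all endothelial barcodes (filled circles) and endothelium-dominant ones (open triangles), with exact Poisson 95% intervals that cover counting error only. Gata5 and Tbx3 stand highest in Ehd3, Sox17 in Slc14a1 and Sox18 and Klf2 in Gkn3 barcodes, in both libraries.

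For the subtypes, UMIs were summed per library and subtype, and each subtype was compared within libraries with the mean of the other 3 (edgeR quasi-likelihood test on 8 sums with the library as a block, 11638 genes, p-values Benjamini-Hochberg adjusted over all of them, threshold 0.05). Values in parentheses after a CPM are 95% intervals for counting error only. The 2 libraries stand in for replicates, and the block takes out the level difference between them. A test thus asks whether a subtype difference is large beside the unevenness of subtype differences from library to library. A lower level in a sum can come from fewer expressing barcodes or from less RNA in each, which are not told apart. Of 36 tests on the 9 genes 12 passed, and 8 of those also passed in the same direction in the endothelium-dominant barcodes. Both counts include Gata5 in Ehd3 barcodes, which passed the gene filter only through those sums. Of all 11638 genes, 480 were called in Ehd3, 703 in Slc14a1, 650 in Gkn3 and 857 in Rgcc barcodes. The share of all genes called in both barcode sets was not counted. The contrasts of a gene are tied, since each subtype also enters the mean that the others are compared with. The 36 tests are thus not separate. Gkn3 sums, of 15 and 19 barcodes, weigh as much in that mean as larger ones. In Gkn3 barcodes all tested genes had a median log2 difference of -0.15, against 0.0651 to 0.0694 in the other contrasts.

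Ehd3 barcodes were called for 3 genes, Gata5, Tbx3 and Fli1, each higher and each higher too in the endothelium-dominant barcodes. In the latter set Fli1 was also called higher in Rgcc barcodes, so there it was not particular to Ehd3. Over all barcodes, with Gata5 counted under the limit given below, 3 of 9 were higher and 0 lower. Of all genes tested 3.31% were called higher and 0.816% lower. The GATA factor gene Gata5 (ENSMUSG00000015627, chromosome 2, 180325133 to 180334699, minus strand, GENCODE M21 on GRCm38) had 34 UMIs in control Ehd3 barcodes and 71 in haplodeficient ones, or 19.5 (13.5 to 27.3) and 19.4 (15.2 to 24.5) CPM. In the other 3 subtypes together it had 0 control UMIs and 1 haplodeficient UMI. The level was thus at least 18.9-fold higher in the control, against a floor of 3 UMIs over the other subtypes, and 83.4-fold higher (14.5 to 3339) in the haplodeficient library. Gata5 passed the gene filter only through its Ehd3 sums, so its adjusted p (0.00304, edgeR) is not read as support. The fitted fold rests on the zeros and is not used. The opposite strand carries Gata5os, and the labels do not say whether strand was used in counting.

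The Gata5 signal sat in few barcodes. It was found in 14 control and 44 haplodeficient endothelial barcodes, of which 14 and 41 were Ehd3 barcodes, and 13 and 42 also had a Tbx3 UMI. Among Ehd3 barcodes without Gata5, 49 of 110 and 96 of 231 had a Tbx3 UMI. Barcodes with Gata5 were deep, with medians of 17222.5 and 20307 UMIs against 10550 and 9416.5 for all Ehd3 barcodes, so these counts of barcodes are not at equal depth. At 1000 UMIs per barcode, 0.833% of 120 control and 2.21% of 272 haplodeficient Ehd3 barcodes had a Gata5 UMI, against 11.3% and 15.1% unthinned. Of all Gata5 UMIs in retained barcodes, 34 of 49 and 76 of 115 lay in endothelial ones, and a further 12 and 37 lay in barcodes with the endothelial markers that were left out for a Ptprc UMI.

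**Figure D3:**
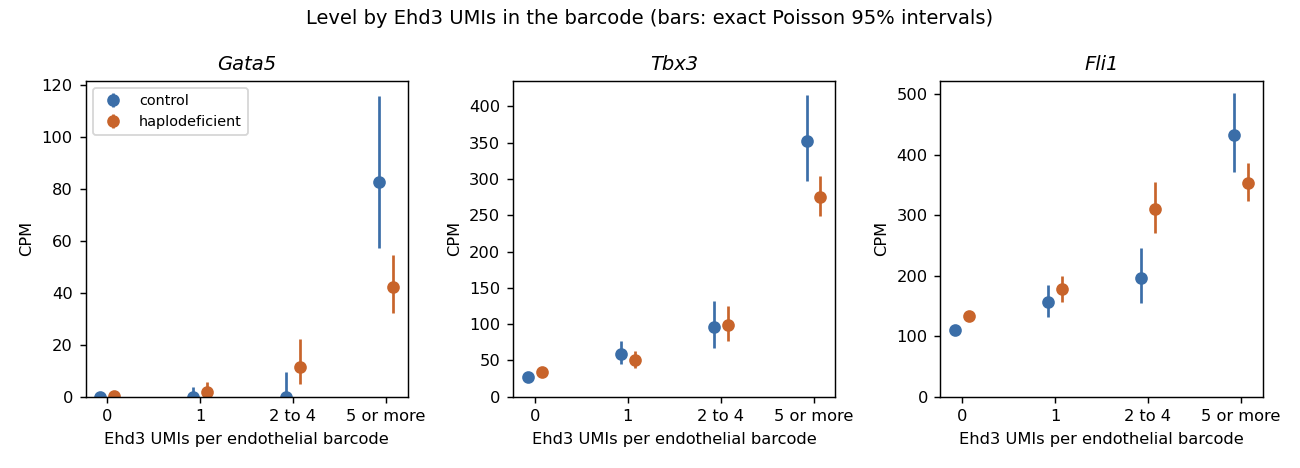
CPM of Gata5, Tbx3 and Fli1 (y axes) in endothelial barcodes grouped by their Ehd3 UMIs (x axis), for the control (blue) and haplodeficient library (orange), with exact Poisson 95% intervals. All 3 genes are highest in barcodes with 5 or more Ehd3 UMIs in both libraries.

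Endothelial barcodes were also graded by their Ehd3 UMIs. With 5 or more Ehd3 UMIs (29 control and 89 haplodeficient barcodes) Gata5 was at 82.8 (57.3 to 116) and 42.3 (32.3 to 54.5) CPM. Those with 1 Ehd3 UMI (67 and 128 barcodes) had 0 and 3 Gata5 UMIs, or 0 (0 to 3.903) and 1.97 (0.406 to 5.75) CPM. Tbx3, a repressor of the T-box family, was at 26.7 (22.8 to 31.1) and 34.7 (30.7 to 39.1) CPM without an Ehd3 UMI, at 59.3 (44.8 to 76.95) and 50.5 (39.9 to 63.1) with 1, and at 353 (298 to 415) and 275 (248 to 304) with 5 or more. Sox17 had no single direction over these grades. In the control library Sox17 was at 217 (205 to 229) CPM without an Ehd3 UMI, 273 (241 to 308) with 1, 406 (345 to 475) with 2 to 4 and 114 (84.1 to 152) with 5 or more. In the haplodeficient library Sox17 was at 364 (351 to 378), 251 (226 to 277), 209 (177 to 245) and 155 (135 to 177) CPM in the same order. It was lowest with 5 or more in both libraries. Barcodes with 1 Ehd3 UMI thus held less Gata5 and Tbx3 than those with 5 or more, beyond counting error.

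Tbx3 (ENSMUSG00000018604, chromosome 5, 119670669 to 119684724, plus strand, with Tbx3os1 on the other strand) was called in Ehd3 barcodes over the other 3 subtypes. The control level of Tbx3 was 137 (119.8 to 155) CPM in Ehd3, 33.3 (23.98 to 44.98) in Slc14a1, 75.3 (38.9 to 132) in Gkn3 and 20.9 (14.2 to 29.6) in Rgcc barcodes. The haplodeficient level of Tbx3 was 147 (135 to 160.1) CPM in Ehd3, 31.98 (22.8 to 43.6) in Slc14a1, 21.2 (4.36 to 61.9) in Gkn3 and 25.9 (20.4 to 32.5) in Rgcc barcodes. The Ehd3 value was the highest in both libraries, and only the control Gkn3 interval, on 12 UMIs, overlapped that of Ehd3. The ratio of the control Ehd3 to the Gkn3 level was 1.81 (1.02 to 3.56). The log2 difference was 2.01 (SE 0.20, adjusted p = 0.000507), and 2.09 (SE 0.25, adjusted p = 0.000948) in endothelium-dominant barcodes. The mural markers, a class with its own Tbx3, summed to 615 and 754 CPM in Ehd3 barcodes, 351 and 493 in Slc14a1, 0 and 543 in Gkn3 and 202 and 352 in Rgcc barcodes.

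Fli1 (ENSMUSG00000016087, chromosome 9, 32422204 to 32542861, minus strand, with Gm27201 on the other strand) encodes an ETS factor that keeps endothelial genes on. Among control barcodes Fli1 was at 231 (209 to 254) CPM in Ehd3, 124 (106 to 145) in Slc14a1, 119 (71.8 to 186) in Gkn3 and 179.8 (159 to 203) in Rgcc barcodes. Among haplodeficient barcodes Fli1 was at 272 (255 to 289) CPM in Ehd3, 98.3 (81.7 to 117) in Slc14a1, 84.7 (43.7 to 148) in Gkn3 and 203 (187 to 221) in Rgcc barcodes. Ehd3 was highest and Gkn3 lowest in both libraries, and the Slc14a1 and Gkn3 intervals overlapped. The log2 difference of Ehd3 barcodes was 0.89 (SE 0.15, adjusted p = 0.00924), and 1.02 (SE 0.16, adjusted p = 0.00405) in endothelium-dominant barcodes. In the latter, Rgcc barcodes were at 434 (377 to 498) and 293 (268 to 319) CPM against 360.2 (322 to 402) and 329.9 (308 to 353) in Ehd3. There Fli1 was called higher in Rgcc barcodes, at 1.07 (SE 0.16, adjusted p = 0.0043), and lower in Gkn3 barcodes, at -1.47 (SE 0.25, adjusted p = 0.00572). Over all barcodes neither passed, at 0.37 (SE 0.16, adjusted p = 0.195) and -0.73 (SE 0.24, adjusted p = 0.13). Lymphoid markers, the class with most Fli1, summed to 3.44 and 3.56 CPM in Ehd3 barcodes, with Cd3g, Trbc2 and Nkg7 at 0 in the control. Myeloid markers, another class with Fli1, summed to 27.5 and 64.9 CPM in Ehd3 and 408 and 55.97 in Slc14a1 barcodes. They summed to 62.8 and 49.4 CPM in Gkn3 and 53.9 and 148 in Rgcc barcodes. The part of such RNA in the Fli1 levels was not tested.

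Slc14a1 barcodes were set apart by the SOXF genes Sox17, which was higher, and Sox7, which was lower, and over all barcodes by Erg, which was higher. That made 2 genes higher and 1 lower of 9, where 3.97% of all genes were called higher and 2.07% lower. Sox17 (ENSMUSG00000025902, chromosome 1, 4490931 to 4497354, minus strand, with Gm37587 on the other strand) acts in arterial identity. For the control, Sox17 was at 265 (242 to 290.5) CPM in Ehd3, 460.3 (424 to 499) in Slc14a1, 283 (206 to 378) in Gkn3 and 153 (134 to 174) in Rgcc barcodes. For the haplodeficient library, Sox17 was at 205 (191 to 221) CPM in Ehd3, 684 (639 to 731) in Slc14a1, 479.8 (373 to 608) in Gkn3 and 290.1 (271 to 310.4) in Rgcc barcodes. Slc14a1 was highest in both libraries, and its interval lay above that of each other subtype, Ehd3 and Rgcc changing places between libraries. The log2 difference was 1.15 (SE 0.20, adjusted p = 0.00806), and 1.11 (SE 0.24, adjusted p = 0.0182) in endothelium-dominant barcodes. At 1000 UMIs per barcode 39.4% of 94 control and 53.5% of 101 haplodeficient Slc14a1 barcodes had a Sox17 UMI, against 19.2% and 16.2% of Ehd3 barcodes and 0.0301% and 0% of proximal tubule barcodes (unthinned 89.6%, 97.03%, 53.2% and 54.8% in the endothelial groups).

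Sox7 (ENSMUSG00000063060, chromosome 14, 63943673 to 63950732, plus strand) was lowest there. In control barcodes Sox7 was at 95.8 (81.9 to 112) CPM in Ehd3, 28.5 (19.98 to 39.5) in Slc14a1, 245 (174 to 335) in Gkn3 and 53.2 (42.1 to 66.3) in Rgcc barcodes. In haplodeficient barcodes Sox7 was at 87.4 (78.04 to 97.5) CPM in Ehd3, 21.6 (14.2 to 31.4) in Slc14a1, 84.7 (43.7 to 148) in Gkn3 and 58.4 (49.9 to 67.9) in Rgcc barcodes. The Slc14a1 interval lay below that of every other subtype in both libraries. The log2 difference of Slc14a1 barcodes was -1.85 (SE 0.27, adjusted p = 0.00245), and -2.17 (SE 0.27, adjusted p = 0.000674) in endothelium-dominant barcodes. Of the UMIs of both genes, Sox17 gave 94.2% (92.01 to 95.9) in control and 96.9% (95.6 to 97.97) in haplodeficient Slc14a1 barcodes, against 73.4% (69.8 to 76.9) and 70.2% (67.3 to 72.9) in Ehd3, 74.2% (68.9 to 78.99) and 83.3% (80.8 to 85.5) in Rgcc, and 53.6% (42.4 to 64.5) and 85.0% (75.3 to 92.002) in Gkn3 barcodes (exact Clopper-Pearson intervals). Such a share depends on how each gene is captured, so it is compared between subtypes and not read as a ratio of the 2 RNAs. The share was above that of Ehd3 barcodes beyond counting error in both libraries, also in endothelium-dominant barcodes, at 94.95% (92.7 to 96.6) and 96.9% (95.5 to 97.99) against 71.5% (67.2 to 75.6) and 64.9% (61.6 to 68.2).

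Erg (ENSMUSG00000040732, chromosome 16, 95359169 to 95586593, minus strand), the other ETS gene, had its highest value in Slc14a1 barcodes over all barcodes. The control level of Erg was 174 (155 to 195) CPM in Ehd3, 273 (245 to 304) in Slc14a1, 264 (190.04 to 356) in Gkn3 and 129.97 (112 to 149.7) in Rgcc barcodes. The haplodeficient level of Erg was 139 (127 to 151) CPM in Ehd3, 239 (213 to 268) in Slc14a1, 162 (103 to 243) in Gkn3 and 112 (100.04 to 125) in Rgcc barcodes. The Slc14a1 and Gkn3 intervals overlapped in both libraries, while Ehd3 and Rgcc barcodes lay below Slc14a1. The log2 difference of Slc14a1 barcodes was 0.77 (SE 0.13, adjusted p = 0.00639). It did not pass in endothelium-dominant barcodes, at 0.59 (SE 0.18, adjusted p = 0.0851), where control Rgcc barcodes reached 358 (306 to 416) CPM beside 356 (317 to 399) in Slc14a1. Of the UMIs of Erg and Fli1 together, Erg gave 68.7% (64.5 to 72.8) and 70.9% (66.3 to 75.1) in Slc14a1 and 43.1% (39.4 to 46.8) and 33.8% (31.4 to 36.3) in Ehd3 barcodes. In endothelium-dominant barcodes these shares were 69.7% (65.1 to 73.98) and 70.8% (65.98 to 75.2), and 43.3% (39.2 to 47.4) and 33.5% (30.9 to 36.1). The balance of the ETS genes thus differed between Slc14a1 and Ehd3 barcodes beyond counting error in both sets. It was not particular to Slc14a1 barcodes: over all barcodes the Erg share was 68.9% (55.7 to 80.1) and 65.7% (47.8 to 80.9) in Gkn3 barcodes. In Rgcc barcodes it was 41.96% (37.4 to 46.6) and 35.5% (32.4 to 38.7).

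Gkn3 barcodes, whose sums were small (159278 and 141739 UMIs), were higher in Sox18, Sox7 and Klf2, 3 of 9 genes with 0 lower, where 3.43% of all genes were called higher and 2.16% lower. Sox18 (ENSMUSG00000046470, chromosome 2, 181669836 to 181671640, minus strand) is known for its part in lymphatic and arterial growth. Among control barcodes Sox18 was at 165 (147 to 186) CPM in Ehd3, 139 (119 to 161) in Slc14a1, 458 (359 to 576) in Gkn3 and 68.02 (55.4 to 82.6) in Rgcc barcodes. Among haplodeficient barcodes Sox18 was at 179 (166 to 193) CPM in Ehd3, 144 (124 to 167) in Slc14a1, 607 (485 to 749) in Gkn3 and 139 (126 to 153) in Rgcc barcodes. The Gkn3 interval lay above that of the other 3 subtypes in both libraries. The log2 difference was 2.01 (SE 0.20, adjusted p = 0.000188), and 1.51 (SE 0.18, adjusted p = 0.000757) in endothelium-dominant barcodes. Of 4 lymphatic genes, Prox1, Lyve1 and Pdpn had 0 UMIs in Gkn3 barcodes of both libraries, with interval ends of 23.2 and 26.03 CPM. Flt4, the other one, was at 43.9 (17.7 to 90.6) and 14.1 (1.71 to 50.97) CPM there on 7 and 2 UMIs, against 51.7 and 56.97 in Ehd3 barcodes. Sox7 differed by 1.74 (SE 0.31, adjusted p = 0.008), and 1.37 (SE 0.30, adjusted p = 0.023) in endothelium-dominant barcodes, but its Gkn3 level differed between libraries. For each library alone (log2 of CPM + 5, with no test), Sox7 in Gkn3 barcodes was 2.10 above the mean of the other subtypes for the control and 0.74 above it for the haplodeficient library, on 12 UMIs. Without barcodes that had 3 or more UMIs of other classes, the Sox7 difference was 0.79 (adjusted p = 0.42, edgeR) and did not pass.

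Klf2 (ENSMUSG00000055148, chromosome 8, 72319033 to 72321656, plus strand), the flow-responsive factor whose promoter is shown above, had its highest level in Gkn3 barcodes. For the control, Klf2 was at 1369 (1314 to 1425) CPM in Ehd3, 1033 (978 to 1091) in Slc14a1, 2461 (2223 to 2717) in Gkn3 and 701 (659 to 745) in Rgcc barcodes. For the haplodeficient library, Klf2 was at 1224 (1189 to 1261) CPM in Ehd3, 806 (757 to 857) in Slc14a1, 1848 (1631 to 2086) in Gkn3 and 1151 (1112 to 1190.4) in Rgcc barcodes. Gkn3 was highest in both libraries with an interval above the others, and the lowest subtype was Rgcc in the control and Slc14a1 in the haplodeficient library. The log2 difference of Gkn3 barcodes was 1.10 (SE 0.19, adjusted p = 0.00668), and 0.91 (SE 0.15, adjusted p = 0.0042) in endothelium-dominant barcodes. Of 8 genes known to respond to flow or to KLF2 and KLF4, 5 were higher in Gkn3 barcodes and 0 lower: Slco2a1, a prostaglandin carrier, by 3.11, Edn1, the endothelin-1 gene, by 3.03, Nos3, the endothelial nitric oxide synthase gene, by 1.96, Cav1 by 1.499 and Vcam1 by 1.23 on the log2 scale. Their median was 1.37, against -0.15 for all genes. KLF2 is known to lower Edn1 and Vcam1 and to raise Nos3, so the genes that were higher include both kinds. In endothelium-dominant barcodes 4 of the 8 were higher and 1, Plpp3, lower, and Vcam1 did not pass (0.83, adjusted p = 0.052). In Ehd3 barcodes Plpp3 was higher and Edn1 and Vcam1 were lower, in Slc14a1 barcodes Slco2a1 and Plpp3 were lower, and in Rgcc barcodes Ptgds was higher and Edn1, Cav1 and Nos3 were lower; Ptgds had 0 UMIs in both Gkn3 sums. In endothelium-dominant barcodes the Rgcc calls of Ptgds (adjusted p = 0.674), Cav1 (-0.44, adjusted p = 0.406) and Nos3 (-0.41, adjusted p = 0.683, edgeR) and the Ehd3 call of Vcam1 (-0.60, adjusted p = 0.132) ended.

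Klf4 (ENSMUSG00000003032, chromosome 4, 55527143 to 55532466, minus strand) passed in no contrast over all barcodes. In control barcodes Klf4 was at 1024 (977 to 1072) CPM in Ehd3, 801 (752 to 852) in Slc14a1, 1274 (1105 to 1462) in Gkn3 and 556 (518 to 595) in Rgcc barcodes. In haplodeficient barcodes Klf4 was at 874 (844 to 905) CPM in Ehd3, 401 (366 to 437) in Slc14a1, 910.1 (759.9 to 1081) in Gkn3 and 755 (724 to 787) in Rgcc barcodes. Gkn3 had the highest value in both libraries, but in the haplodeficient library its interval overlapped that of Ehd3. The log2 difference of Gkn3 barcodes was 0.64 (SE 0.22, adjusted p = 0.145). In endothelium-dominant Slc14a1 barcodes Klf4 was lower, at -0.68 (SE 0.16, adjusted p = 0.025), as was Klf2, at -0.70 (SE 0.15, adjusted p = 0.0197); over all barcodes these were -0.52 (SE 0.22, adjusted p = 0.223) and -0.51 (SE 0.20, adjusted p = 0.187). Of 15 immediate early genes, which rise when tissue is dissociated, 5 were higher in Gkn3 barcodes and 0 lower (Hspa1a, Zfp36, Ier2, Ier3 and Junb), with a list median of 0.55 against -0.15 for all genes. In Slc14a1 barcodes 1 of them, Zfp36, was lower, and in Ehd3 barcodes 0 of the 15 were called. In Rgcc barcodes Ier2 and Junb were lower, and neither passed in endothelium-dominant barcodes. Their part in the Klf2 and Klf4 levels was not tested.

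Rgcc barcodes were called by lower genes over all barcodes, Sox18 at -1.27 (SE 0.19, adjusted p = 0.0041), Tbx3 at -1.42 (SE 0.26, adjusted p = 0.0102) and Erg at -0.81 (SE 0.14, adjusted p = 0.00836). That is 3 of 9 lower and 0 higher, where 3.08% of all genes were lower and 4.29% higher. None of these calls held in endothelium-dominant barcodes, where the values were -0.61 (SE 0.17, adjusted p = 0.0966) for Sox18, -0.74 (SE 0.32, adjusted p = 0.357) for Tbx3 and -0.13 (SE 0.19, adjusted p = 0.883) for Erg. The Tbx3 difference turned to 1.04 (adjusted p = 0.815) without barcodes of 3 or more UMIs of other classes and to 1.06 (adjusted p = 0.792, edgeR) after thinning to 1000 UMIs, with 0 Tbx3 UMIs in the Gkn3 sums under both. For each library alone (with no test) Sox18 in Rgcc barcodes was -1.62 in control and -0.83 in haplodeficient barcodes, and Tbx3 -1.55 and -0.77. Control Rgcc barcodes moved most between the sets, with Erg at 129.97 CPM over all and 358 in endothelium-dominant barcodes, and Sox18 at 68.02 and 182 CPM. The markers of thick limb or distal tubule summed to 4303 CPM in control Rgcc barcodes against 839 in Ehd3 and 909 in Slc14a1. Fli1 was the 1 gene of the 9 that was called in endothelium-dominant Rgcc barcodes, where 2.17% of genes were called higher and 0.994% lower. In these barcodes Ehd3 had 3.48% of genes higher and 0.795% lower, Slc14a1 4.42% and 2.66%, and Gkn3 2.77% and 1.89%.

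**Figure D4:**
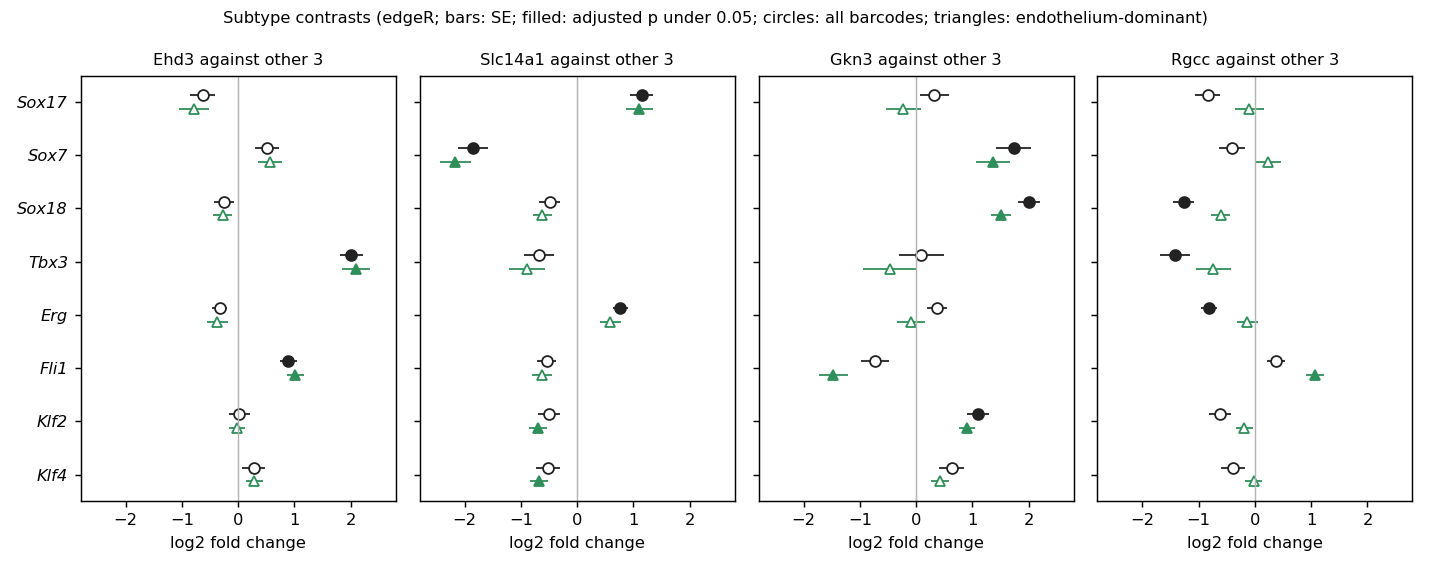
Log2 difference of each subtype from the mean of the other 3 (x axis) for 8 of the 9 genes (rows; Gata5, with almost no UMI outside Ehd3 barcodes, is left out), for all barcodes (circles) and endothelium-dominant barcodes (triangles), with SE as bars and filled symbols for an adjusted p under 0.05. The Rgcc panel changes most between the sets, with Sox18, Tbx3 and Erg filled only as circles and Fli1 only as a triangle.

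Other endothelial transcription factors, a list of 45 genes of which 41 were tested, give the surroundings. In Ehd3 barcodes 7 were higher and 1 lower, and the largest differences were Hopx (4.68), Meox1 (4.58) and Prdm1 (2.04), all higher on the log2 scale. In Slc14a1 barcodes 4 were higher and 5 lower, led by Lef1 (5.38), a factor of WNT signalling, and by Smad6 (-2.55) and Hey2 (-2.16). Hey2 did not pass in endothelium-dominant barcodes (-1.89, adjusted p = 0.227, edgeR). In Gkn3 barcodes 7 were higher and 5 lower, with Hey2 (3.88), a NOTCH target of arteries, and Smad6 (2.79) higher and Nr2f2 (-2.82), a factor of veins, lower. Nr2f2 was called higher in Ehd3 (0.99), Slc14a1 (0.83) and Rgcc barcodes (0.99), contrasts that all include its Gkn3 sums of 2 and 6 UMIs. In Rgcc barcodes 6 were higher and 1 lower, with Hey1 (-4.45) lower and Meox1 (3.91) and Tcf15 (1.05) higher. Hopx and Meox1 had 0 UMIs in both Gkn3 sums, Lef1 in the control Gkn3 sum, Irx3 and Prdm1 in the haplodeficient Gkn3 sum and Hey1 in the control Rgcc sum, so their fitted values depend on the prior count and are no bounds. The list medians were 0.23, -0.15, 0.01 and -0.17 in this order, beside 0.0651, 0.0675, -0.15 and 0.0694 for all genes. In endothelium-dominant barcodes the medians were 0.21, -0.35, -0.29 and 0.22, so that of Rgcc changed sign and that of Gkn3 lay below the -0.15 of all genes. There 7 were higher and 1 lower in Ehd3, 2 and 8 in Slc14a1, 5 and 5 in Gkn3 and 6 and 1 in Rgcc barcodes.

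The genes with the pattern most like each of the 9 were taken by Pearson's r of log2(CPM + 5) over the 8 sums, among 3898 genes. For Sox17 these were Gadd45g, Bcap29 and Col18a1, for Sox7 Spen, Sec14l1 and Map2k3, and for Sox18 Fam129b, Wars and Crip2. Gata5 was most like Crem, Rin2 and Rbms2, and Tbx3 most like Sptbn1, Ddx3y and Mprip. Erg was followed by Abr, Rps15 and Gulp1, Fli1 by Stard8, Tusc3 and Eml4, Klf2 by Tmed5, Kank2 and Tmod3, and Klf4 by Jund, Egr1 and Ier5. The r values ran from 0.913 to 0.989, over sums that share libraries and depth, and 2 of the 27 genes (Sec14l1 for Sox7 and Rps15 for Erg) were also among the nearest in endothelium-dominant barcodes. Among the 9 themselves, Klf2 and Sox18 had r = 0.905, Gata5 and Tbx3 0.872 and Klf2 and Klf4 0.867, while Sox17 and Fli1 had r = -0.758. In endothelium-dominant barcodes these 4 pairs had r = 0.796, 0.818, 0.828 and -0.368, and the lowest r was that of Sox17 and Sox7 (-0.824, against -0.464 over all barcodes).

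Between the libraries no test was possible, with 1 library per group, and the intervals cover counting error only. Genes averaging 50 CPM or more on 30 or more UMIs were read, which leaves 8 of the 9 and not Gata5. In all endothelial barcodes 0 of these 8 reached a 2-fold difference (log2 of CPM + 5) with intervals apart, a size that 2.34% of 3969 genes reached. These sums pool subtypes whose shares differed between the libraries. Ehd3 made up 20.3% of control and 25.6% of haplodeficient endothelial barcodes, Slc14a1 15.7% and 9.52%, Gkn3 2.46% and 1.79%, and Rgcc 19.2% and 29.3%. The CPM ratio of haplodeficient over control was 1.37 (1.29 to 1.44) for Sox17, 1.13 (0.996 to 1.28) for Sox7, 1.38 (1.27 to 1.49) for Sox18, 1.53 (1.01 to 2.37) for Gata5 and 1.37 (1.22 to 1.54) for Tbx3. It was 0.875 (0.814 to 0.942) for Erg, 1.34 (1.25 to 1.45) for Fli1, 1.22 (1.19 to 1.26) for Klf2 and 1.07 (1.03 to 1.1003) for Klf4. The interval of Erg lay below 1, that of Sox7 included it, and the others, also that of Gata5, lay above it. The share of all genes with an interval off 1 was not counted, so these sides are no result about the 9 genes as a group. With equal weight for the 4 subtypes, the log2 ratio changed sign for Sox7, Tbx3, Klf2 and Klf4.

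In endothelium-dominant barcodes the picture was another. There no interval lay above 1, and 0 of the 8 genes again reached the 2-fold size, beside 0.831% of 3850 genes. The share of all genes with an interval off 1 was not counted there either. Sox17 was at 463 (441 to 486) and 452 (437 to 468) CPM, a ratio of 0.976 (0.9198 to 1.04), and Fli1 at 256 (239 to 273) and 256 (244 to 267), a ratio of 0.999 (0.922 to 1.08). Sox18 had a ratio of 0.9899 (0.906 to 1.08), Tbx3 1.104 (0.965 to 1.27) and Gata5 1.15 (0.739 to 1.82). Below 1 were Sox7 at 0.843 (0.737 to 0.967), Klf2 at 0.889 (0.86002 to 0.919), Klf4 at 0.7802 (0.7497 to 0.812) and Erg at 0.606 (0.56004 to 0.656).

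Erg was the gene of the 9 whose ratio stayed below 1 under every alternative run, at log2 values from -0.71 to -0.19. It went from 157 (149 to 166) to 137 (131 to 144) CPM over all barcodes and from 321 (302 to 339.9) to 194 (184 to 205) in endothelium-dominant ones. By subtype its ratio was 0.796 (0.689 to 0.921) in Ehd3, 0.875 (0.747 to 1.02) in Slc14a1, 0.615 (0.353 to 1.05) in Gkn3 and 0.861 (0.718 to 1.03) in Rgcc barcodes. In endothelium-dominant barcodes these were 0.605 (0.516 to 0.70996), 0.834 (0.706 to 0.985), 0.612 (0.327 to 1.11) and 0.454 (0.374 to 0.552), the last past the 2-fold size, beside 3.95% of 3878 genes in those barcodes. Endothelial barcodes without a subtype marker are not part of these subtype values. Their Erg level, given at the end, was not lower in the haplodeficient library. The median mitochondrial share was 4.37% in control and 2.44% in haplodeficient endothelial barcodes, and library and genotype cannot be told apart.

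**Figure D5:**
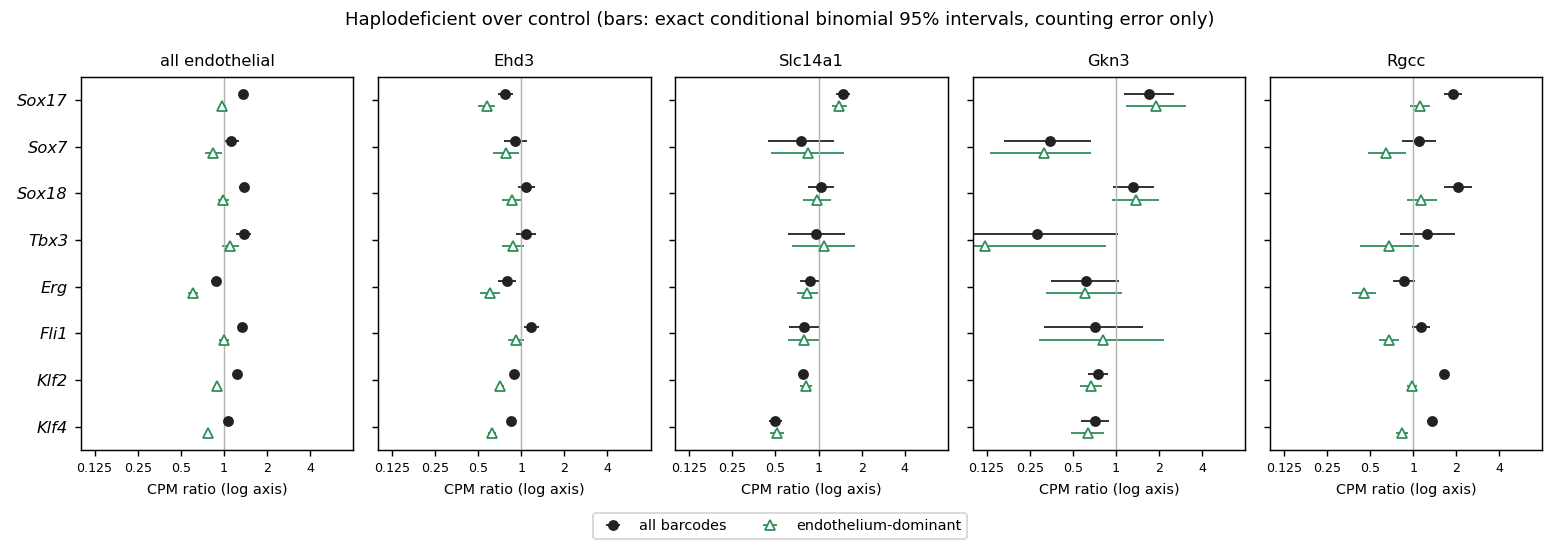
CPM ratio of haplodeficient over control (x axis, log scale) for 8 genes (rows; Gata5 is left out) in all endothelial barcodes and in each subtype, for all barcodes (filled circles) and endothelium-dominant ones (open triangles), with exact conditional binomial 95% intervals. Erg lies left of 1 in every panel, and Sox17, Klf2 and Klf4 change sides between Ehd3 and Rgcc barcodes among the filled circles; the lowest Tbx3 intervals run past the left edge.

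In Ehd3 barcodes, Gata5 had a ratio of 0.997 (0.653 to 1.55) and Tbx3 one of 1.08 (0.923 to 1.26), intervals that include 1, while Fli1 had one of 1.18 (1.05 to 1.33). In endothelium-dominant Ehd3 barcodes the Fli1 ratio was 0.916 (0.805 to 1.04). Klf4 in Slc14a1 barcodes was at 801 (752 to 852) and 401 (366 to 437) CPM, a ratio of 0.5001 (0.448 to 0.557), and 0.513 (0.455 to 0.578) in endothelium-dominant barcodes. With 5 CPM added it stood just under the 2-fold size, which 4.26% of 3706 genes reached there (4.1% in endothelium-dominant barcodes). Sox7 in Gkn3 barcodes was at 245 (174 to 335) CPM on 39 UMIs and 84.7 (43.7 to 148) on 12, a ratio of 0.346 (0.165 to 0.674), the 1 value of the 9 genes past the size rule over all barcodes of a subtype, beside 6.62% of 1858 genes. It was past that size in endothelium-dominant Gkn3 barcodes too, at 0.315 (0.133 to 0.668), beside 5.77% of genes. In Ehd3 barcodes 2.28% of genes (2.25% in endothelium-dominant ones) and in Rgcc barcodes 4.03% reached it. Of the 45 other transcription factors 24 were measured well enough in all endothelial barcodes and 0 passed the size rule. In endothelium-dominant barcodes 1 of 26, Lef1, was lower.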

How the data were processed

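Each library was a kidney cell suspension measured with 10x Genomics 3′ chemistry, per the labels' protocols. The deposited values were raw counts of UMIs per gene and barcode, without a filter on cells, made by the authors with Cell Ranger 4, per the file headers, on mm10, per the submitters' processing notes. The annotation used is not given in the sources used here. A cell-hashing library is mentioned in the protocols, but all 32285 features were genes. The libraries held 134190236 (control) and 114668145 (haplodeficient) UMIs, and retained barcodes had medians of 9160 and 5861.5.

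Sums per subtype and library were fitted with edgeR 4.0.16 (TMM, filterByExpr, quasi-likelihood test) in R 4.3.3, with DESeq2 1.42.0 as an alternative. In simulated Ehd3 sums of 11263 genes the test recovered 45% of 2-fold and 86% of 4-fold changes with 9 false calls. All simulated sums shared a mean profile and a common dispersion (0.0225). They had no library effect and no subtype differences but the planted ones, so these figures are not rates for the real sums. CPM have exact Poisson, ratios exact conditional binomial and shares exact Clopper-Pearson 95% intervals, which cover counting error only. Shares of barcodes were also taken at 1000 UMIs, leaving out shallower barcodes. No doublets were removed. Another class was assigned with at least 3 marker UMIs and 2 times the next. Of the gene identifiers 32235 (99.8%) matched GENCODE M21, the source of coordinates.

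The 9 genes and the gene lists were chosen with earlier results of these data known. Named genes are the 9, the 3 most alike each, the 3 largest calls among other transcription factors per subtype, and calls among flow-responsive and immediate early genes. Alternatives covered cell filters, marker minimums, thinning, scaling, gene filters, pseudocount and the library block.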

Additional observations from a re-analysis of the deposited data

Results flagged for a closer look

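For 3 of the 9 genes the libraries differed in opposite directions in different subtypes, each with an interval that excluded 1. This difference between subtypes was not tested, since there was 1 library per group. The share of all genes with such opposite directions was not counted, so 3 of 9 is not read as more than among other genes.

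Sox17 had a ratio of haplodeficient over control of 0.775 in Ehd3 barcodes, but 1.49 in Slc14a1, 1.7 in Gkn3 and 1.9 in Rgcc barcodes. In endothelium-dominant barcodes it was 0.573 (0.499 to 0.659) in Ehd3, 1.40 (1.25 to 1.57) in Slc14a1, 1.895 (1.18 to 3.08) in Gkn3 and 1.11 (0.948 to 1.32) in Rgcc barcodes, so the Ehd3 and Slc14a1 values lay on opposite sides of 1 in both sets.

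Klf2 had a ratio of 1.64 in Rgcc barcodes, against 0.895 in Ehd3, 0.78 in Slc14a1 and 0.751 in Gkn3 barcodes. Klf4 had 1.36 in Rgcc, 0.854 in Ehd3, 0.5 in Slc14a1 and 0.714 in Gkn3 barcodes. In endothelium-dominant Rgcc barcodes the ratios were 0.984 (0.906 to 1.07) for Klf2 and 0.835 (0.755 to 0.926) for Klf4, so neither lay above 1.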

How the results depend on the processing

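The 9 genes' calls per subtype were recomputed under other filters, scalings and tools, and without barcodes in which another class reached the endothelial markers or without the Gkn3 sums (both chosen after the data were seen). From 3 calls in each subtype, counting every gene with a UMI gave 5 in Ehd3, Slc14a1, Gkn3 and Rgcc. Leaving out barcodes with 3 or more UMIs of other classes gave 5 in Slc14a1 and 1 in Rgcc, the endothelium-dominant barcodes 1 in Rgcc, thinning to 1000 UMIs 0 in Gkn3 (4 at an unadjusted p under 0.05, with 2977 genes left), and leaving out the Gkn3 sums 5 in Slc14a1. Other settings kept each count within 1.5 times. Tbx3 in Rgcc barcodes turned to 1.04 without barcodes of 3 or more other-class UMIs and to 1.06 after thinning, where Gkn3 sums held 0 Tbx3 UMIs; Gata5 was too low to be tested in both. In endothelium-dominant barcodes the calls of Sox18, Tbx3 and Erg in Rgcc and of Erg in Slc14a1 ended.

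No paired analysis was possible because each group had 1 library; the library served as the block within which subtypes were compared. Without that replicate block the calls were 1 in Slc14a1 and 0 in Rgcc (5 at an unadjusted p under 0.05), and 3 in Gkn3; calls over all genes were 123 instead of 480 in Ehd3, 269 instead of 703 in Slc14a1, 410 instead of 650 in Gkn3 and 141 instead of 857 in Rgcc. With every gene they were 970, 1269, 1250 and 1596, after thinning 170, 293, 173 and 235, without barcodes of 3 or more other-class UMIs 395 in Gkn3 and 439 in Rgcc, in endothelium-dominant barcodes 318 in Rgcc, without the Gkn3 sums 1117 in Slc14a1 and 550 in Rgcc, and with at least 2 marker UMIs 726 in Ehd3. With 1 library left out no test remained.

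Between libraries 0 of the 9 genes passed the size rule over all endothelial barcodes in any setting run, and all genes past it were 93, or 29, 32 and 260 without other-class UMIs, in endothelium-dominant barcodes and from a mean of 10 CPM. The sign of the log2 ratio changed under at least 1 setting for 7 of the 9 genes and not for Erg and Gata5. Alternatives on the subtype rule do not bear on that comparison. Depth limits Gkn3 sums most, where 3 UMIs equal 18.8 and 21.2 CPM.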

Other observations

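Endothelial barcodes with none of the 4 subtype markers (239 control and 327 haplodeficient) had, in the control library, Sox17 at 149 (136 to 163), Sox7 at 23.3 (18.4 to 29.1), Sox18 at 53.6 (45.98 to 62.1), Erg at 84.2 (74.6 to 94.7) and Fli1 at 72.1 (63.2 to 81.8) CPM. In the haplodeficient library they had Sox17 at 307 (289 to 326), Sox7 at 33.2 (27.4 to 39.7), Sox18 at 105 (94.7 to 116), Erg at 95.2 (85.3 to 106) and Fli1 at 91.8 (82.1 to 102) CPM. In 48.95% and 29.05% of these barcodes another class's markers reached the endothelial ones.

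Barcodes with more than 1 of Ehd3, Slc14a1 and Gkn3 (19 and 31), which had medians of 18012 and 22244 UMIs, had Sox17 at 485 (417 to 559) and 546 (492 to 604) CPM and Erg at 383 (324 to 450.1) and 265 (228 to 306) CPM.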
